A study of Bos taurus with 40 samples.

Results

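The genes described here code for the enzymes and carriers of the urea cycle and for the enzymes that release and bind ammonia as glutamine. They were chosen by name, as CPS1, ASS1, ASL, ARG1, ARG2, NAGS, SLC25A13, SLC25A15, GLS2 and GLUL, and not by any measured value. Earlier results of these data were known when they were chosen. NAGS and SLC25A13 have no entry in the count tables, so 8 of the 10 genes were measured, and all 8 were among the 13148 genes tested out of 13570 listed. Read counts came from the pituitary gland, the liver, fat of the abdomen and a muscle of the back (longissimus dorsi) of 10 Korean cattle, 5 cows and 5 bulls slaughtered at over 22 months of age, with 1 library per animal and tissue (40 libraries). All groups were untreated animals of this beef breed and differed by sex and tissue, and the 4 tissues came from the same 10 animals. The females are numbered as cows 1 to 5 and the males as bulls 1 to 5, and a cow and a bull of the same number are not paired.

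The urea cycle turns ammonia into urea, which is its route out of the body in cattle as in other mammals, and ruminant liver also receives much ammonia from the rumen. CPS1 and OTC work in the mitochondria of hepatocytes, ASS1, ASL and ARG1 work in the cytosol, and SLC25A15 carries ornithine in and citrulline out across the inner mitochondrial membrane. In liver, the glutaminase GLS2 releases ammonia from glutamine in the same cells as the cycle, whereas the glutamine synthetase GLUL takes up ammonia in the cells around the central vein.

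Expression levels are given as CPM, the reads of a gene per 1000000 reads on genes after scaling by TMM factors, which set the bulk of genes level between libraries. CPM values follow gene length as well as abundance, so levels were compared between samples of the same gene and never between genes. Between 5173092 and 19165864 reads per library fell on genes (median 10005607). The smallest level a library can show was taken as 3 reads, or 0.157 to 0.580 per 1000000 before TMM scaling. On the TMM scale this level also moves with the factor, and 2 reads of GLS2 in the muscle of bull 3 were 0.529 CPM. The hepatocyte markers (11 of 12 with an entry, ALB among them) summed to 179180 to 432530 CPM in liver and to at most 1970 CPM elsewhere, and the markers of adipocytes, muscle fibres and pituitary hormone cells likewise stood highest in their labelled tissue, although the adipocyte marker ADIPOQ has no entry. The liver library labelled bull 3 held 8694 reads of XIST and none of USP9Y, so it went against its label for sex, and its profile was closest to the liver of cow 4 (r = 0.993), from which it still differed beyond sampling noise (chi-square per degree of freedom 15.8). The fat library of bull 5 held only 23 reads of USP9Y (1.78 CPM) against a median of 29.8 CPM in the fat of the 5 bulls. Calls that change without these libraries are given with and without them, as are the liver differences between the sexes.

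The first comparison asked in which tissues the genes were expressed. Most of them were liver genes. CPS1, ASS1, ASL, ARG1, SLC25A15 and GLS2 were higher in liver than in each of the other tissues, in 10 of 10 animals and with no overlap between tissues. ARG2 was highest in the pituitary gland and muscle, and GLUL was highest in muscle. Tissues were compared with edgeR's quasi-likelihood test on all 40 libraries, with sex and tissue in the model and the 13148 genes adjusted together. In these bulk tissues, fewer cells of a type and less RNA per cell cannot be told apart.

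**Figure D1:**
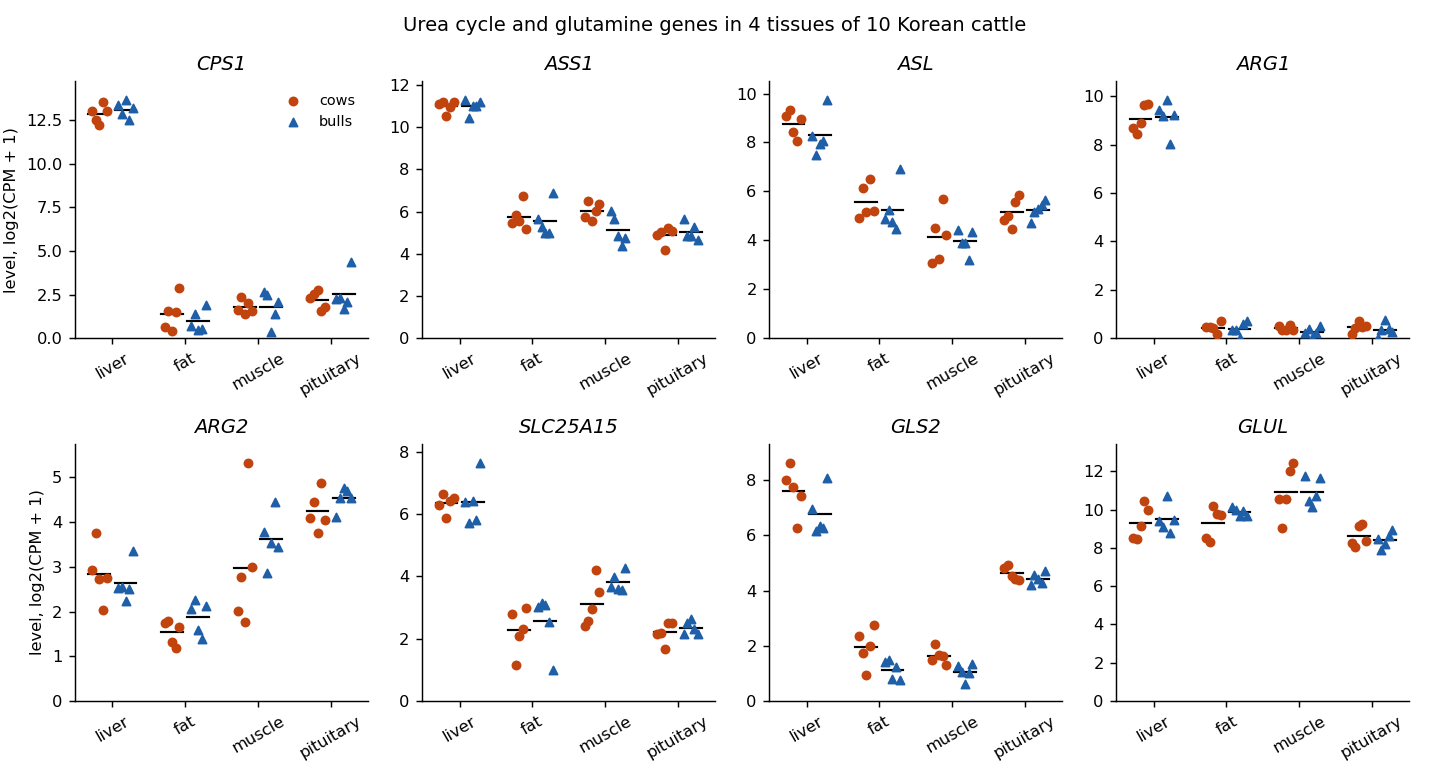
Level of each of the 8 genes on the log2(CPM + 1) scale (vertical axis) in liver, fat, muscle and pituitary gland (horizontal axis), with 1 point per animal, circles for cows, triangles for bulls and a line at the mean of each 5. Liver points of CPS1, ASS1, ASL, ARG1, SLC25A15 and GLS2 stand above those of every other tissue, and those of ARG2 and GLUL do not.

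CPS1, the mitochondrial synthetase that brings ammonia into the cycle, ranged from 4821 to 12889 CPM in liver (median 8292 CPM, n = 10). In fat it ranged from 0.328 to 6.45 CPM, in muscle from 0.264 to 5.21 CPM and in the pituitary gland from 1.95 to 19.7 CPM. The lowest liver therefore stood far above the highest library of any other tissue. The log2 fold change was 12.25 against fat (SE 0.43), 11.54 against muscle (SE 0.43) and 10.69 against the pituitary gland (SE 0.41), with quasi-likelihood adjusted p of 2.3e-20, 5.2e-20 and 2.3e-19. Outside the liver, the pituitary gland was higher than fat (log2 fold change of fat to pituitary gland -1.57, SE 0.44, adjusted p = 0.00231, quasi-likelihood), whereas muscle did not differ detectably from fat (-0.72 for fat to muscle) or from the pituitary gland (-0.85). With library sizes alone the former turned to 0.07 and the latter was called (-1.87), as it was by DESeq2 (-0.98, adjusted p = 0.0341), and without cow 5 fat was called lower than muscle (-1.30, adjusted p = 0.0111).

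OTC, which joins carbamoyl phosphate to ornithine, was not among the chosen genes and was taken from a list of nitrogen genes to complete the cycle. Its level was 382 to 751 CPM in liver (median 572 CPM). Elsewhere it had 0 to 9 reads per library, and in the pituitary gland no library exceeded 2 reads. Like CPS1, it was a gene of the liver, with log2 fold changes of 11.70 (SE 0.45), 11.50 (SE 0.53) and 13.34 (SE 0.68) against fat, muscle and the pituitary gland (quasi-likelihood adjusted p of 1.1e-24, 3.0e-24 and 2.5e-25).

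ASS1, which joins citrulline to aspartate, ranged from 1388 to 2489 CPM in liver (median 2137 CPM). In fat it ranged from 30.3 to 118 CPM, in muscle from 19.5 to 90.5 CPM and in the pituitary gland from 16.8 to 49.1 CPM. No library of any tissue was below 16.8 CPM. Liver was higher by a log2 fold change of 5.24 (SE 0.25) over fat, 5.34 (SE 0.25) over muscle and 6.05 (SE 0.25) over the pituitary gland, with quasi-likelihood adjusted p of 1.9e-19, 8.0e-20 and 3.7e-21. Fat and muscle did not differ detectably (0.10, SE 0.25, adjusted p = 0.753), although fat was called higher with library sizes alone (0.86). Muscle was higher than the pituitary gland in 9 of 10 animals (0.70, SE 0.25, adjusted p = 0.0143), but the sign turned with library sizes alone (-0.23) and the call was lost without cow 2 (0.59, adjusted p = 0.0545). The call of fat over the pituitary gland (0.80, adjusted p = 0.00496) was lost without the fat library of bull 5 (0.52, adjusted p = 0.0501).

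ASL, which splits argininosuccinate into arginine and fumarate, ranged from 179 to 850.1 CPM in liver (median 322 CPM). It ranged from 20.8 to 119 CPM in fat, from 7.45 to 51.1 CPM in muscle and from 20.9 to 56.6 CPM in the pituitary gland. Liver exceeded fat by a log2 fold change of 3.07 (SE 0.32), muscle by 4.51 (SE 0.32) and the pituitary gland by 3.45 (SE 0.32), with quasi-likelihood adjusted p of 1.8e-10, 1.7e-14 and 9.2e-12. Muscle was the lowest tissue. Fat exceeded muscle in 10 of 10 animals (1.44, SE 0.32, adjusted p = 2.0e-04), and muscle was below the pituitary gland in 9 of 10 (-1.06, SE 0.32, adjusted p = 0.00425). Fat and the pituitary gland did not differ detectably (0.38, SE 0.32, adjusted p = 0.295).

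The arginases, which release urea from arginine, split between tissues. ARG1, the cytosolic form, ranged from 261 to 916 CPM in liver (median 588 CPM) and had 0 to 9 reads in each library of the other tissues, in all 49 reads in fat, 21 in muscle and 52 in the pituitary gland. Its log2 fold change was 10.69 against fat (SE 0.32), 10.98 against muscle (SE 0.41) and 10.75 against the pituitary gland (SE 0.32), with quasi-likelihood adjusted p of 6.8e-26, 1.1e-25 and 4.8e-26. Between fat, muscle and the pituitary gland no difference was detectable at these few reads, whereas with library sizes alone muscle was called lower than fat (1.07 for fat to muscle) and than the pituitary gland (-1.13).

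ARG2, the mitochondrial arginase, ranged from 12.5 to 28.5 CPM in the pituitary gland (median 21.5 CPM) and from 2.41 to 39.2 CPM in muscle (median 8.46 CPM). It ranged from 3.09 to 12.6 CPM in liver (median 5.23 CPM) and from 1.28 to 3.77 CPM in fat (median 2.25 CPM). By its medians, liver came behind the pituitary gland and muscle. Fat was below each other tissue, by a log2 fold change of -2.32 against muscle (SE 0.33, adjusted p = 2.1e-07), -3.12 against the pituitary gland (SE 0.33, adjusted p = 2.6e-10) and, with liver higher in 10 of 10 animals, 1.39 for liver over fat (SE 0.34, adjusted p = 4.8e-04). Liver was below the pituitary gland in 10 of 10 animals (-1.73, SE 0.33, adjusted p = 1.6e-05).

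The place of muscle in the ARG2 order was less firm, and the muscle of cow 4 bore on it. Cow 4 had 39.2 CPM of ARG2, whereas the other 9 muscles ranged from 2.41 to 20.9 CPM. Liver against muscle gave -0.93 (SE 0.33, quasi-likelihood adjusted p = 0.0135), but -0.31 without cow 4 (adjusted p = 0.353), -0.77 without bull 4 (adjusted p = 0.0595) and -0.71 with the animal as a block (adjusted p = 0.0685) and -0.68 with library sizes alone (adjusted p = 0.0575). Muscle against the pituitary gland gave -0.80 (SE 0.32, adjusted p = 0.0291), with adjusted p of 0.0536 to 0.0720 when cow 1, cow 2, cow 5, bull 2 or bull 3 was left out.

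SLC25A15, the ornithine and citrulline carrier, ranged from 51.5 to 200.04 CPM in liver (median 83.2 CPM). It ranged from 4.28 to 18.2 CPM in muscle, from 1.0 to 7.81 CPM in fat and from 2.17 to 5.19 CPM in the pituitary gland. Liver was higher by a log2 fold change of 4.17 (SE 0.28) over fat, 3.02 (SE 0.28) over muscle and 4.49 (SE 0.28) over the pituitary gland, with quasi-likelihood adjusted p of 1.9e-15, 5.2e-12 and 2.1e-16. Muscle came next, above the pituitary gland in 10 of 10 animals (1.47, SE 0.28, adjusted p = 2.3e-05) and above fat in 9 of 10 (-1.14 for fat to muscle, SE 0.28, adjusted p = 6.5e-04). Both of these muscle calls were lost with library sizes alone in place of TMM factors (0.48 and -0.24). Fat and the pituitary gland did not differ detectably (0.32, SE 0.29, adjusted p = 0.322).

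GLS2 ranged from 70.2 to 395 CPM in liver (median 146 CPM) and from 17.4 to 29.4 CPM in the pituitary gland (median 21.3 CPM). It ranged from 0.696 to 5.67 CPM in fat and from 0.529 to 3.20 CPM in muscle. The order was liver, then the pituitary gland, then fat and muscle, with no overlap between these steps. Liver exceeded fat by a log2 fold change of 6.32 (SE 0.27), muscle by 6.71 (SE 0.30) and the pituitary gland by 2.87 (SE 0.26), with quasi-likelihood adjusted p of 1.1e-20, 3.6e-21 and 3.1e-12. The pituitary gland in turn exceeded fat (-3.45 for fat to pituitary gland, SE 0.28, adjusted p = 1.2e-13) and muscle (-3.84, SE 0.30, adjusted p = 2.1e-14), whereas fat and muscle did not differ detectably (0.39, SE 0.31, adjusted p = 0.277) unless library sizes alone were used (1.2).

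GLUL was the only measured gene of the group without a liver excess over fat. It ranged from 355 to 1679 CPM in liver (median 619 CPM), from 316 to 1156 CPM in fat (median 857 CPM), from 524 to 5582 CPM in muscle (median 1599 CPM) and from 238 to 599 CPM in the pituitary gland (median 340.5 CPM). Muscle was higher than liver in 9 of 10 animals (-1.65 for liver to muscle, SE 0.33, adjusted p = 3.7e-05), higher than fat in 10 of 10 (-1.54 for fat to muscle, SE 0.32, adjusted p = 1.1e-04) and higher than the pituitary gland in 10 of 10 (2.67, SE 0.33, adjusted p = 6.9e-09) in the quasi-likelihood test. Liver and fat did not differ detectably (-0.11, 95% interval -0.74 to 0.53, adjusted p = 0.803), and liver was called lower with library sizes alone (-0.86). Both were above the pituitary gland, by 1.02 for liver (SE 0.33, adjusted p = 0.00637) and 1.12 for fat (SE 0.33, adjusted p = 0.00292), and the call for liver was lost with library sizes alone (0.12).

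**Figure D2:**
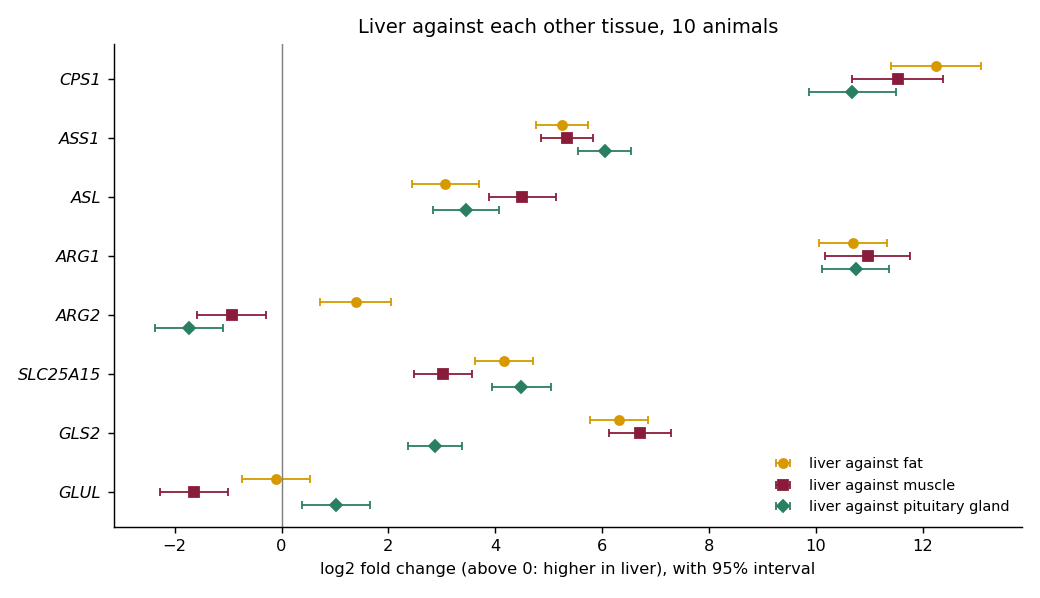
Log2 fold change of liver against fat (circles), muscle (squares) and pituitary gland (diamonds) for the 8 genes (vertical axis), with 95% intervals and values above 0 for higher in liver. CPS1 and ARG1 lie beyond 10, ASS1, ASL, SLC25A15 and GLS2 between 2.87 and 6.71, and ARG2 and GLUL on both sides of 0.

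In counts, 7 of the 8 genes were higher in liver than in fat and none was lower, where 28.9% of all genes tested were called higher and 35.4% lower. Against muscle 6 were higher and 2 lower (28% and 34% of all genes), and against the pituitary gland 7 were higher and 1 lower (29.4% and 35.1%). Against each of the 3 tissues at once, 6 of the 8 were higher and none lower, where 13.6% of all genes were higher and 13.8% lower. The median log2 fold change of the 8 genes was 4.70, 4.92 and 3.97 in these comparisons, beside -0.13, -0.11 and -0.12 over all genes tested. Between the other tissues the share called was nearer to the background, with 1 higher and 3 lower for fat against muscle (32.8% and 26.8%), 2 higher and 3 lower for fat against the pituitary gland (31.8% and 32.8%) and 3 higher and 3 lower for muscle against the pituitary gland (31.5% and 32.5%).

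The scale bears on small tissue differences. With library sizes alone, the median over all genes moved from -0.13 to -0.82 for liver against fat, from -0.12 to -0.92 for liver against the pituitary gland, from 0.13 to 0.86 for fat against muscle and from -0.03 to -0.89 for muscle against the pituitary gland. Calls higher against lower moved from 3801 against 4658 to 2120 against 7009, from 3862 against 4616 to 2081 against 7626, from 4307 against 3528 to 7122 against 1772 and from 4148 against 4271 to 1942 against 7299 in these comparisons. The liver excess of CPS1, ASS1, ASL, ARG1, SLC25A15 and GLS2 was called on both scales.

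The few reads of CPS1, ARG1 and OTC outside the liver were set beside those of ALB, the hepatocyte gene for serum albumin. ALB itself had 8.97 to 105 CPM in fat, 3.44 to 83.4 CPM in muscle and 11 to 22.4 CPM in the pituitary gland, against 71709 CPM or more in liver. Over the 10 libraries of a tissue, CPS1 had 71.5 reads per 1000 ALB reads in liver, against 47.9, 70.0 and 299 in fat, muscle and the pituitary gland. ARG1 had 4.78, 9.79, 6.68 and 19.1 reads per 1000 ALB reads in these tissues, and OTC had 5.10, 4.59, 4.45 and 2.57. Single livers ranged from 32.9 to 117 CPS1 reads per 1000 ALB reads, and the pooled values of fat and muscle lay within that range, whereas CPS1 stood higher in each pituitary gland but that of cow 5 (107 reads per 1000 ALB reads) than in every library of fat and muscle (19.5 to 108). Traces of the pituitary hormone PRL were also present outside the pituitary gland, at up to 311 CPM in liver. The part of RNA from other tissues in these few reads was not tested. For ASS1 the reads per 1000 ALB reads were 18.4 in liver against 1583, 1295 and 1803 in fat, muscle and pituitary gland, and for GLS2 they were 1.62 against 66.5, 41.0 and 1292.

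The second comparison asked whether the genes were sexually dimorphic in a given tissue. M1, the model with sex as its only term, was fitted to the 10 libraries of each tissue and tested with the likelihood ratio test (LRT) of edgeR. None of the 8 genes was called in liver, fat, muscle or pituitary gland. The background was 0.175%, 0.114%, 0.517% and 0.745% of the 13148 genes in these tissues, so few calls were made on any genes. At an unadjusted p under 0.05 there were GLS2 in fat and GLS2 and ASS1 in muscle, where 7.45%, 6.88%, 11% and 9.27% of all genes passed in liver, fat, muscle and pituitary gland. The quasi-likelihood test and DESeq2 also called none of the 8 genes in any tissue. Without cow 4, whose ARG2 stood apart, ARG2 was called male-biased in muscle (1.42, LRT adjusted p = 0.0274), against 0.10 with it. Without this animal, the calls over all genes in muscle also rose from 68 to 553, and 1.56% of genes were called higher in males.

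ASS1 in muscle and GLS2 in fat had the smallest unadjusted p of the group. In muscle, ASS1 stood at 52.6, 90.5, 46.7, 63.2 and 79.9 CPM in cows 1 to 5 and at 63.7, 49.0, 27.8, 19.5 and 25.7 CPM in bulls 1 to 5. Bulls 3, 4 and 5 lay below every cow, and bulls 1 and 2 lay among the cows. The log2 fold change of male to female was -0.83 (SE 0.34), with an adjusted p of 0.283 in the edgeR LRT.

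In liver, CPS1 stood at 8385, 5882, 4821, 11709 and 8199 CPM in cows 1 to 5 and at 10415, 7302, 12889, 5795 and 9242 CPM in bulls 1 to 5. The sexes overlapped almost fully, and the log2 fold change was 0.25 with a 95% interval of -0.40 to 0.91. The intervals were -0.53 to 0.56 for ASS1, -0.63 to 0.86 for ARG1 and -0.46 to 0.92 for SLC25A15. They hold for each gene alone, and larger changes could go uncalled after adjustment over all genes. In fat, GLS2 had an interval of -2.41 to -0.28 and was not called. Without the liver library labelled bull 3, the log2 fold change was 0.08 for CPS1, 0.25 for SLC25A15, -0.19 for ASL, -0.18 for ARG2 and -0.71 for GLS2. The sign turned for ARG1 (from 0.12 to -0.090), GLUL (from 0.15 to -0.32) and ASS1 (from 0.02 to -0.00046), and none was called with or without it. Over the 8 genes, the median log2 fold changes in the same order of tissues were 0.07, -0.11, -0.32 and 0.10, beside 0, -0.06, -0.04 and 0 over all genes.

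The third comparison took the 4 tissues together in M2, with sex and tissue as terms. Of the 8 genes only GLS2 was called, as female-biased, where 1.35% of all genes were called lower in males. In liver, GLS2 stood at 253, 395, 214, 76.2 and 169 CPM in cows 1 to 5 and at 123, 70.2, 79.9, 75.8 and 272 CPM in bulls 1 to 5. Cow 4 lay among the low bulls, and bull 5 was higher than each cow but cow 2. In fat, the cows stood at 4.07, 2.34, 0.901, 2.96 and 5.67 CPM and the bulls at 1.63, 1.83, 0.732, 1.35 and 0.696 CPM. All cows but cow 3 were above every bull. In muscle, the cows stood at 1.79, 3.20, 2.16, 2.07 and 1.45 CPM and the bulls at 1.39, 1.05, 0.529, 0.994 and 1.52 CPM. Here bull 5 alone reached into the range of the cows, on 2 to 37 reads per library. In the pituitary gland, the cows stood at 27.1, 29.4, 22.2, 20.4 and 19.96 CPM and the bulls at 17.4, 22.4, 20.2, 18.2 and 25.4 CPM, and the sexes overlapped.

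**Figure D3:**
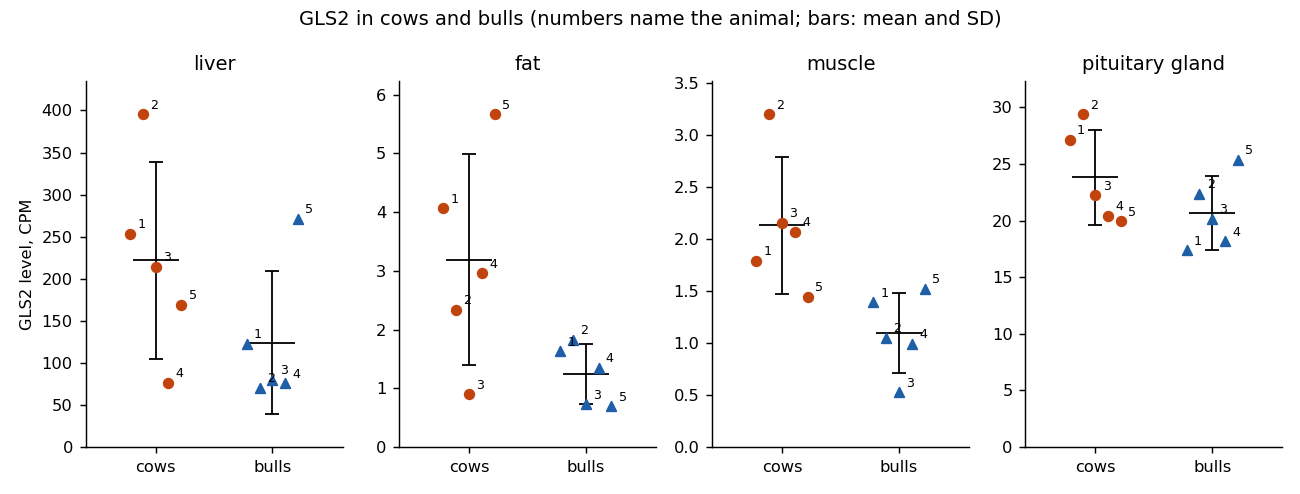
GLS2 level in CPM (vertical axes, each from 0) in 5 cows (circles) and 5 bulls (triangles) for each tissue, with the animal's number beside each point and bars for the mean and SD of 5. The mean of bulls is below that of cows in each of the 4 tissues, and the sexes overlap in each.

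The log2 fold change of GLS2 in M2 was -0.79 (SE 0.20), that is 1.73-fold lower in males, with an adjusted p of 0.0198 in the LRT. By tissue, M1 gave -0.81 (SE 0.44) for liver, -1.35 (SE 0.54) for fat, -0.93 (SE 0.45) for muscle and -0.20 (SE 0.20) for the pituitary gland, with LRT adjusted p of 0.718, 0.599, 0.394 and 0.753. The difference between tissues itself was not called (interaction of sex and tissue, edgeR LRT adjusted p = 0.868), and none of the 8 genes was, where 0.335% of all genes were.

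M2 counts the 4 tissues of an animal as independent samples, and the call of GLS2 rested on this and on the test. With the animal as a block in limma voom the log2 fold change was -0.66 and the adjusted p 0.384, and in the quasi-likelihood test the adjusted p was 0.0509. Without the liver library labelled bull 3 the LRT gave -0.76 (adjusted p = 0.0336), and without the fat of bull 5 it gave -0.74 (adjusted p = 0.0325). The call was lost when any of cow 1, cow 2, bull 1, bull 2, bull 3 or bull 4 was left out (adjusted p of 0.0516 to 0.115).

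Markers of white blood cells moved in the same direction in places. The 7 of 8 with an entry summed to 36.3 to 167 CPM in muscle of cows and 19.3 to 70.7 CPM in muscle of bulls, to 26.7 to 75.1 and 15.6 to 45.1 CPM in the pituitary gland, to 81.8 to 264 and 113 to 455 CPM in fat and to 217 to 666 and 225 to 409 CPM in liver. The median of the sum was 105 CPM in cows and 39.8 CPM in bulls in muscle, and 36.2 and 20.8 CPM in the pituitary gland. In fat it was 192 CPM in cows and 147 CPM in bulls. In liver it was lower in cows, at 345 CPM against 387 CPM in bulls. CD3E, 1 of the 7 markers and a part of the T cell receptor complex, was called lower in males in M2 (-1.10, SE 0.28, adjusted p = 0.0197, LRT). This 1 marker does not stand for the list, and its result with the animal as a block is not reported here. The M2 results of the other markers are not reported here. M2 counts the 4 tissues of an animal as independent, and its calls over all genes fell from 222 to 8 with the animal as a block. The part of white blood cells in the result for GLS2 was not tested.

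The remaining genes had log2 fold changes in M2 between -0.22 for ASL and 0.34 for SLC25A15, with LRT adjusted p of 0.380 or more. OTC stood at 0.01 (SE 0.26, adjusted p = 0.986). For CPS1 the 95% interval was -0.47 to 0.70 and for GLUL -0.44 to 0.45.

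Within the liver, the genes did not rise and fall together as 1 group. Pearson's r of log2(CPM + 1) was computed over the 10 livers for the 28 pairs of the 8 genes, a comparison added after the data had been seen, with permutation tests adjusted over the 28 pairs. It ranged from -0.63 to 0.90, and 6 pairs passed, all positive. ASL, ARG2 and GLS2 varied together, with r = 0.90 for ASL and GLS2 (rho = 0.93, permutation adjusted p of 0.00938 and 0.00518), r = 0.89 for ARG2 and GLS2 (rho = 0.83, permutation adjusted p of 0.00196 and 0.0307) and r = 0.82 for ASL and ARG2 (rho = 0.85, permutation adjusted p of 0.0196 and 0.0266). Without the 2 livers farthest from the median of the first gene, these were 0.87, 0.80 and 0.67. ASL with SLC25A15 (r = 0.77, rho = 0.61, permutation adjusted p of 0.0392 and 0.170) fell to r = 0.48 in this way and rested on those livers.

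The other pairs included ARG1. ARG1 and GLUL had r = 0.87 (rho = 0.93, permutation adjusted p of 0.0106 and 0.00518), and 0.93 without the 2 farthest livers. CPS1 and ARG1 had r = 0.77 (rho = 0.76, permutation adjusted p of 0.0483 and 0.0858), and 0.82 without the 2 farthest. Without the liver labelled bull 3 the pair of CPS1 and ARG1 no longer passed (r = 0.71, permutation adjusted p = 0.163), nor did it with CPM of the library total (r = 0.66, permutation adjusted p = 0.118), whereas the other 5 pairs passed in both by Pearson's r. By Spearman's rho, ASL and ARG2 were lost with CPM of the library total (rho = 0.76, permutation adjusted p = 0.0618), and ASL with SLC25A15 passed in neither (permutation adjusted p of 0.147 and 0.0618). CPS1 and ASL, enzymes of the same cycle, had r = -0.14 (permutation adjusted p = 0.758). With 5 animals per sex, no correlation was computed within a sex.

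By animal, cow 4 and the liver labelled bull 3 had the highest CPS1 (11709 and 12889 CPM) and GLUL (1387 and 1679 CPM) with low ASL (262 and 241 CPM) and GLS2 (76.2 and 79.9 CPM). These 2 livers had the closest profiles of any pair of livers, and the latter went against its label for sex. They may therefore not be 2 independent cases. Cow 2 had the highest GLS2 (395 CPM) and ARG2 (12.6 CPM) with the lowest GLUL (355 CPM). Bull 5 had the highest ASL (850.1 CPM) and SLC25A15 (200.04 CPM). These are the livers that stand out in the plot by animal.

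**Figure D4:**
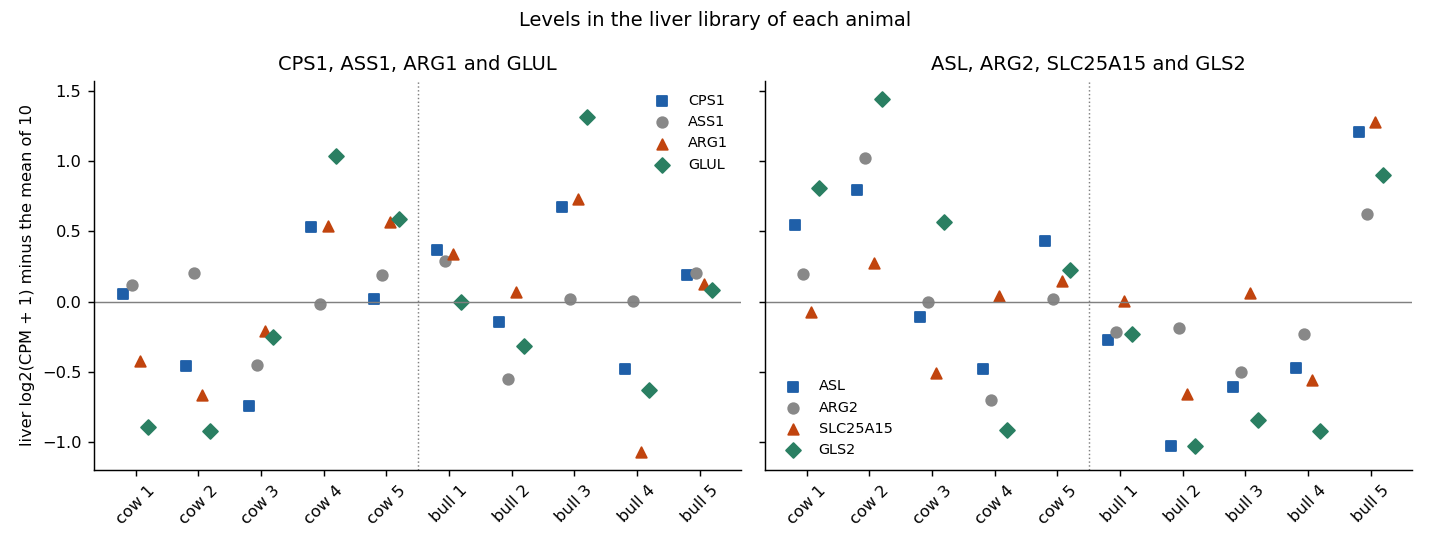
Liver level of each gene on the log2(CPM + 1) scale minus its mean over the 10 livers (vertical axis), for cows 1 to 5 and bulls 1 to 5 (horizontal axis), in 2 panels of 4 genes. CPS1, ARG1 and GLUL are highest in cow 4 and bull 3 or cow 5, ASS1 varies least, and ASL, ARG2, SLC25A15 and GLS2 are high in cow 2 and bull 5.

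The wider pathways were described by lists. Of 22 nitrogen entry and carrier genes with an entry (of 24 listed), 8 were higher and 3 lower in liver than in each of the other tissues, beside the 13.6% and 13.8% of all genes. The list's medians against fat, muscle and the pituitary gland were 0.22, -0.56 and 1.19. Besides OTC, these were led by AQP9, a channel for water, glycerol and urea, and SLC38A4, an amino acid carrier. AQP9 had log2 fold changes of 9.23, 10.76 and 11.18 against fat, muscle and the pituitary gland, and SLC38A4 of 8.51, 8.0 and 6.53, all with quasi-likelihood adjusted p of 1.8e-15 or less. Of 19 genes that use arginine, ornithine and proline (of 22 listed), 5 were higher and 3 lower against the same background, with medians of -0.49, -0.31 and -0.02 beside -0.13, -0.11 and -0.12 over all genes. They were led by PRODH2, which oxidizes hydroxyproline (9.68, 9.30 and 10.42), GATM, which starts creatine from arginine (6.62, 8.14 and 8.23), and DDAH1, which breaks down methylated arginine (5.05, 3.76 and 2.77).

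Of 25 amino acid breakdown genes (of 27 listed), 18 were higher and 1 lower in liver than in each other tissue, where 13.6% and 13.8% of all genes were. TDO2, which opens the ring of tryptophan, had log2 fold changes of 11.63, 11.89 and 11.26 against fat, muscle and the pituitary gland, KMO of the same pathway 10.73, 11.28 and 11.72, and HGD of the tyrosine pathway 9.83, 11.12 and 12.18. The median of the list was 3.74, 4.36 and 4.77. Of 12 liver regulators (of 16 listed), 5 were higher and none lower against that background, with medians of 2.17, 0.62 and 3.58, among them the glucagon receptor GCGR (9.06, 6.88 and 9.52). FOXA1 was 9.43 above fat and 7.51 above the pituitary gland, and had no read in any muscle. Of 12 zonation genes (of 15 listed), 8 were higher and none lower against that background, with medians of 5.05, 5.92 and 5.67, among them CYP2E1 (11.49, 11.64 and 13.12) and CYP1A2 (11.08, 10.54 and 12.04) of the cells around the central vein. SLC1A2, RHBG, OAT, SDS and HAL stand in more than 1 list.

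Of the 86 genes of these lists, taken once each, 3 were called sexually dimorphic in muscle (3.49%, beside 0.517% of all genes). In the pituitary gland 2 were called (2.33%, beside 0.745%), and none in liver or fat. The lists were chosen with earlier results of these data known, so these shares cannot test for an excess of calls. In muscle, SLC38A4 was male-biased, at 0.692 to 1.66 CPM in cows and 2.76 to 9.78 CPM in bulls with no overlap (2.25, SE 0.50, LRT adjusted p = 0.00537). GCGR was female-biased in muscle, at 4.41, 3.98, 2.41, 0.591 and 4.08 CPM in cows 1 to 5 and 0.105 to 0.695 CPM in bulls (-2.94, SE 0.68, adjusted p = 0.00525), and cow 4 lay among the bulls. Its effect of sex was called as different between tissues (LRT interaction, adjusted p = 0.00534), as was that of the glutamine carrier SLC38A3 (adjusted p = 0.0157). Neither interaction was called with the quasi-likelihood test, which called 0 genes in all. CDH1, the adhesion protein of epithelial cells, was female-biased in muscle (-1.95, SE 0.54, adjusted p = 0.0491).

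In the pituitary gland, the glycine-cleaving enzyme GLDC stood at 8.52, 8.72, 6.67, 12.2 and 6.90 CPM in cows 1 to 5 and at 2.18, 3.58, 3.36, 1.5 and 3.33 CPM in bulls 1 to 5. No bull reached a cow (-1.63, SE 0.31, LRT adjusted p = 2.3e-04). GLDC was also called in M2 (-0.78, SE 0.20, LRT adjusted p = 0.0248). That model includes these same libraries and counts the 4 tissues of an animal as independent. The ammonia channel RHCG had at most 1 read in the pituitary gland of any cow and 7, 10, 7, 28 and 56 reads in bulls 1 to 5 (LRT adjusted p = 2.3e-05). The amino acid breakdown genes had a median log2 fold change of male to female of -0.38 in liver, with 3 of 25 above 0. Over all genes the median was 0, with 46.1% above 0. These values include the liver library labelled bull 3, and those without it are not reported here.

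The genes whose levels over the 40 libraries were most like those of each member were found by Pearson's r of log2(CPM + 1) among 10946 genes. CPS1 was closest to SERPIND1, C5 and ITIH2 (each 0.992), which code for proteins that the liver secretes into plasma. ASS1 was closest to VTN (0.981), ITIH1 (0.981) and APOH (0.980), ASL to KHK (0.964), ACY1 (0.954) and HGFAC (0.953), and ARG1 to SERPINA11, GJB1 and SLC22A9 (each 0.997). SLC25A15 was closest to DHTKD1 (0.968), DDC (0.945) and GLUD1 (0.9445), and GLS2 to SLC6A11 (0.980), SLC27A2 (0.975) and TRPM8 (0.969). The members that were not highest in liver had lower values, with DLK1 (0.851), BDNF (0.847) and IGSF3 (0.833) for ARG2 and GID4 (0.910), PREP (0.865) and ATF4 (0.847) for GLUL. The libraries share animals and tissues, and a difference between tissues enters each r. After the mean of each tissue was subtracted, the highest r ran from 0.645 for ARG1 with DNAJC7 to 0.860 for ASL with TSEN54, and GID4 was again the closest to GLUL (0.782). Without the liver library labelled bull 3, the closest to ARG1 was SAA2 (0.616), with DNAJC7 at 0.596. ARG1 also had few reads in the libraries outside the liver.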

How the data were processed

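RNA of 4 tissues of 10 Korean cattle was sequenced as paired-end reads of 101 bases. The deposited values are raw counts of reads per gene, which the authors made with Trimmomatic, TopHat2 with Bowtie2, SAMtools and HTSeq on bosTau7 from uniquely aligned reads, so genes with near-identical copies may be undercounted. The strand setting and the counting mode are not given in the sources used here. A row without a gene name (0.114 to 2.69% of gene reads) was left out. Depth ran from 5173092 to 19165864 reads on genes, and the floor of 3 reads covers counting error only.

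Genes with a read in at least 1 library were kept (13148). Sex was tested with edgeR 4.0.16 (R 4.3.3, TMM factors, prior count 0.125) by LRT in each tissue (M1) and over 40 libraries with tissue as a term (M2), as was the interaction. Tissues were compared by the quasi-likelihood test with sex and tissue as terms. P-values were Benjamini-Hochberg adjusted over all genes with a threshold of 0.05, and 95% intervals are 1.96 SE. These fits were tested on simulated data. Alternatives used limma 3.58.1, DESeq2 1.42.0, other scalings and filters, an animal block and left-out libraries or animals. Correlations used log2(CPM + 1) with 100000 permutations (Python 3.11.15, scipy 1.17.1), and plots matplotlib 3.10.9. Levels are not comparable between genes, since no gene lengths were used.

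The 10 genes and the lists were chosen with earlier results of these data known. Named from each list were at most 3 genes called between the sexes with the smallest adjusted p, and at most 3 with the largest smaller difference of liver from the other tissues. The 3 genes closest to each member by r were named as well. Some genes that this rule names are not reported here. Cows and bulls of the same number did not deviate together (r of -0.63 to 0.47, over 0.1 in 4 of 20 pairs). Tissues of the same animal, known from the labels, had r of -0.45 to 0.56 (over 0.1 in 38 of 60 pairs), and the animal block rests on the labels.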

Additional observations from a re-analysis of the deposited data

Results flagged for a closer look

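Of 64 groups of 5 animals (8 genes, 4 tissues, both sexes), 10 held an animal whose gap to the nearest other exceeded Dixon's critical value of 0.71 of the range. Chance gives about 1 in 20 groups, or 3.2 of 64, and the shares of all genes that stood out in the same groups (6.79 to 8.08%, and 23.8% in fat of bulls) come to 6.17 of 64. Bull 5 was the outlying animal in 7 of them. In its liver, ASL stood at 850.1 CPM (other bulls 179 to 303), SLC25A15 at 200 CPM (51.5 to 85.7), GLS2 at 271.5 CPM (70.2 to 123) and ARG2 at 9.251 CPM (3.71 to 4.83), where 1.4% of all genes were highest there by the same measure. In its fat, the library with few USP9Y reads, ASS1 stood at 117.6 CPM (30.3 to 49.2) and ASL at 118.9 CPM (20.8 to 36.5), where 16.4% of all genes were. In its pituitary gland, CPS1 stood at 19.7 CPM on 302 reads (other bulls 2.21 to 4.03), where 3.45% of all genes were.

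The other animals were cow 5, with CPS1 at 6.454 CPM in fat (other cows 0.328 to 1.95), cow 4, with ARG2 at 39.16 CPM in muscle (2.41 to 6.97), and the liver library labelled bull 3, with GLUL at 1679 CPM (434 to 713).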

How the results depend on the processing

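Of 205 alternative values for the sex differences of the 8 genes, 200 kept their direction and side of the threshold, as did 318 of 336 for tissue differences and 48 of 48 for the interaction. With animals left out, 355 of 400 sex values and 462 of 480 tissue values did. Library sizes alone, the fit without the fat of bull 5 and both alternatives of the liver pairs were chosen after seeing the data. The count of genes called in M2 fell from 1 to 0 with the quasi-likelihood test and with the replicate block (animal), and was 0 to 1 with animals left out, as was the count in muscle. The block also ended the call of ARG2 between liver and muscle (-0.71). The labels pair no cow with a bull, so no paired analysis was made and M1 has no block.

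Library sizes alone turned the sign of ASS1 in liver (-0.14) and ASL in the pituitary gland (-0.033) between the sexes, of CPS1 between fat and muscle (0.068), of ARG1 between fat and the pituitary gland (-0.064) and of ASS1 between muscle and the pituitary gland (-0.23). Without the liver labelled bull 3, GLUL in M2 turned to -0.10. Without the fat of bull 5, ASS1 between fat and muscle turned to -0.10 and ARG1 between fat and the pituitary gland to -0.12. The causes were not tested.

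With animals left out, signs turned within these ranges. In liver between the sexes they were -0.079 to 0.12 for ASS1, -0.090 to 0.31 for ARG1, -0.56 to 0.054 for ARG2, -0.23 to 0.38 for SLC25A15 and -0.32 to 0.51 for GLUL. In fat they were -0.64 to 0.24 for ASS1, -0.90 to 0.13 for ASL and -0.42 to 0.20 for ARG1. In muscle they were -0.054 to 0.48 for CPS1, -0.66 to 0.17 for ASL, -0.19 to 1.42 for ARG2 and -0.51 to 0.19 for GLUL. In the pituitary gland they were -0.16 to 1.03 for CPS1, -0.0058 to 0.27 for ASS1 and -0.10 to 0.26 for ASL. In M2 they were -0.25 to 0.29 for CPS1, -0.18 to 0.033 for ARG1 and -0.18 to 0.21 for GLUL. Between tissues they were -0.31 to 0.0046 for GLUL (liver and fat), -0.021 to 0.24 for ASS1 (fat and muscle), -0.10 to 0.35 for ARG1 (fat and pituitary gland) and -0.50 to 0.015 for ARG1 (muscle and pituitary gland).

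Over all genes, M1 called 23, 15, 68 and 98 in liver, fat, muscle and pituitary gland and 1, 3, 7 and 12 with the quasi-likelihood test. DESeq2 called 28 in fat, and edgeR's expression filter left 13 in liver and 6 in fat. In the pituitary gland, library sizes alone gave 56 calls (32 higher and 24 lower in males) in place of 98 (73 and 25). M2 called 222, against 77 with the quasi-likelihood test and 8 with the replicate block. The interaction called 44, against 0 with edgeR's quasi-likelihood test (922 at an unadjusted p under 0.05), 13 with the block and 74 without the fat of bull 5. With animals left out, counts ran from 10 to 187, 5 to 22, 25 to 553 and 54 to 231 by tissue and from 57 to 714 in M2. Few reads limit ARG1, CPS1 and GLS2 in fat and muscle.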
